A study of Homo sapiens with 6 samples.

Results

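The 36 genes described here encode the enzymes and carriers of glycolysis together with genes that the hypoxia-inducible factors (HIF) switch on. They were chosen by gene symbol from the 60676 genes of the deposited expression table, and all 36 symbols were found there. The RNA came from NCI-H226 cells, a long-used human line that its labels place in the pleura as a mesothelioma, kept in DMEM with 10% FBS. One group of 3 libraries (replicates 1, 2 and 3) came from cells given the vehicle DMSO, and the other group of 3 (replicates 1, 2 and 6) from cells given 500 nM HC278. Both exposures lasted 24 h. The series title calls HC278 a TEAD degrader, and the labels also spell it HC31278A and HC-31278. Whether replicates were grown apart is not stated by any label, and p-values here reflect library-to-library spread that could be technical.

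Glycolysis splits glucose into pyruvate in a chain of enzymes that every cell carries, and cells that make lactate from the pyruvate export it through monocarboxylate carriers. HIF is a pair of subunits whose alpha partner is hydroxylated by oxygen-using EGLN enzymes and then destroyed. When oxygen is short the alpha subunit lasts, enters the nucleus and raises glucose carriers, most glycolytic enzymes, the carbonic anhydrase CA9 and stress genes such as ADM. TEAD proteins are DNA-binding partners of YAP1 and WWTR1 at the end of the Hippo pathway.

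Total counts were between 30486316 and 33181814 per library. Of 14 mesothelial markers, 12 had a mean of at least 1 CPM (a gene's counts scaled to a common library size), and their summed level was 4804 to 6543 CPM with DMSO and 4771 to 9063 CPM with HC278. Most of that sum was KRT8, KRT18 and KRT19, and KRT5 and HP were at or near 0. Within the list CALB2 (log2 1.35), UPK3B (log2 1.05) and ITLN1 (log2 1.36) rose and UPK1B fell (log2 -1.79). Of 6 lung epithelial and 4 squamous markers, 0 reached 1 CPM, and the summed levels were at most 0.634 and 0.205 CPM in any library. Of 5 immune markers, CD68 and CD14 had a mean of at least 1 CPM. Their list summed to 37.7 to 38.9 CPM with DMSO and 62.4 to 78.0 CPM with HC278, while PTPRC, which defines leukocytes, had mean levels of 0.0607 and 0.201 CPM and CD3E was at 0. The part of these markers in the results was not tested. Of 4 endothelial and 4 fibroblast markers, the endothelial ones summed to 0.604 to 1.21 CPM with DMSO and 1.05 to 2.19 CPM with HC278, and the fibroblast ones to 3.81 to 4.73 and 2.57 to 4.0 CPM. The libraries differed in a graded way along gene length, with HC278 replicates 1 and 6 at the ends. With genes split at the quartiles of length, the longest genes of replicate 6 lay at a median of 0.3401 above the mean of all libraries on the log2 scale and its shortest at -0.354, against -0.2468 and 0.386 in HC278 replicate 1. DMSO replicate 3 deviated in the same direction as replicate 6, at 0.1518 and -0.2433.

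The summed level of the glycolytic chain overlapped between HC278 and DMSO, and a few members moved in opposite directions. Of the 35 members with enough counts to be tested, 5 changed: the glucose carrier SLC2A3, the aldolase ALDOC and the carbonic anhydrase CA9 rose, and the hexokinase HK2 and the peptide hormone gene ADM fell. The other 30 did not pass, with log2 fold changes from -0.58 to 0.39. The share of members called was 14.3%, beside 10.8% of all 15510 tested genes (5.4% higher and 5.38% lower), so the count is near that of genes at large. The median log2 fold change was 0.06 over the members and 0.051 over all tested genes, and the median size of change without its sign was 0.22 and 0.30. In RNA from whole cultures, fewer cells of a kind and less RNA per cell cannot be told apart. The 17 glycolytic and lactate dehydrogenase enzymes among the members took 2.09%, 2.03% and 1.98% of all TPM (a level per transcript length, summing to the same total in every library) in the DMSO libraries. In the HC278 libraries they took 2.09%, 2.13% and 1.84%, and the groups overlapped. GAPDH was the largest part of this sum, at 10506 ± 467 TPM with DMSO and 10438 ± 1367 TPM with HC278 (SD, n = 3). The sum therefore says little of the less abundant enzymes.

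**Figure D1:**
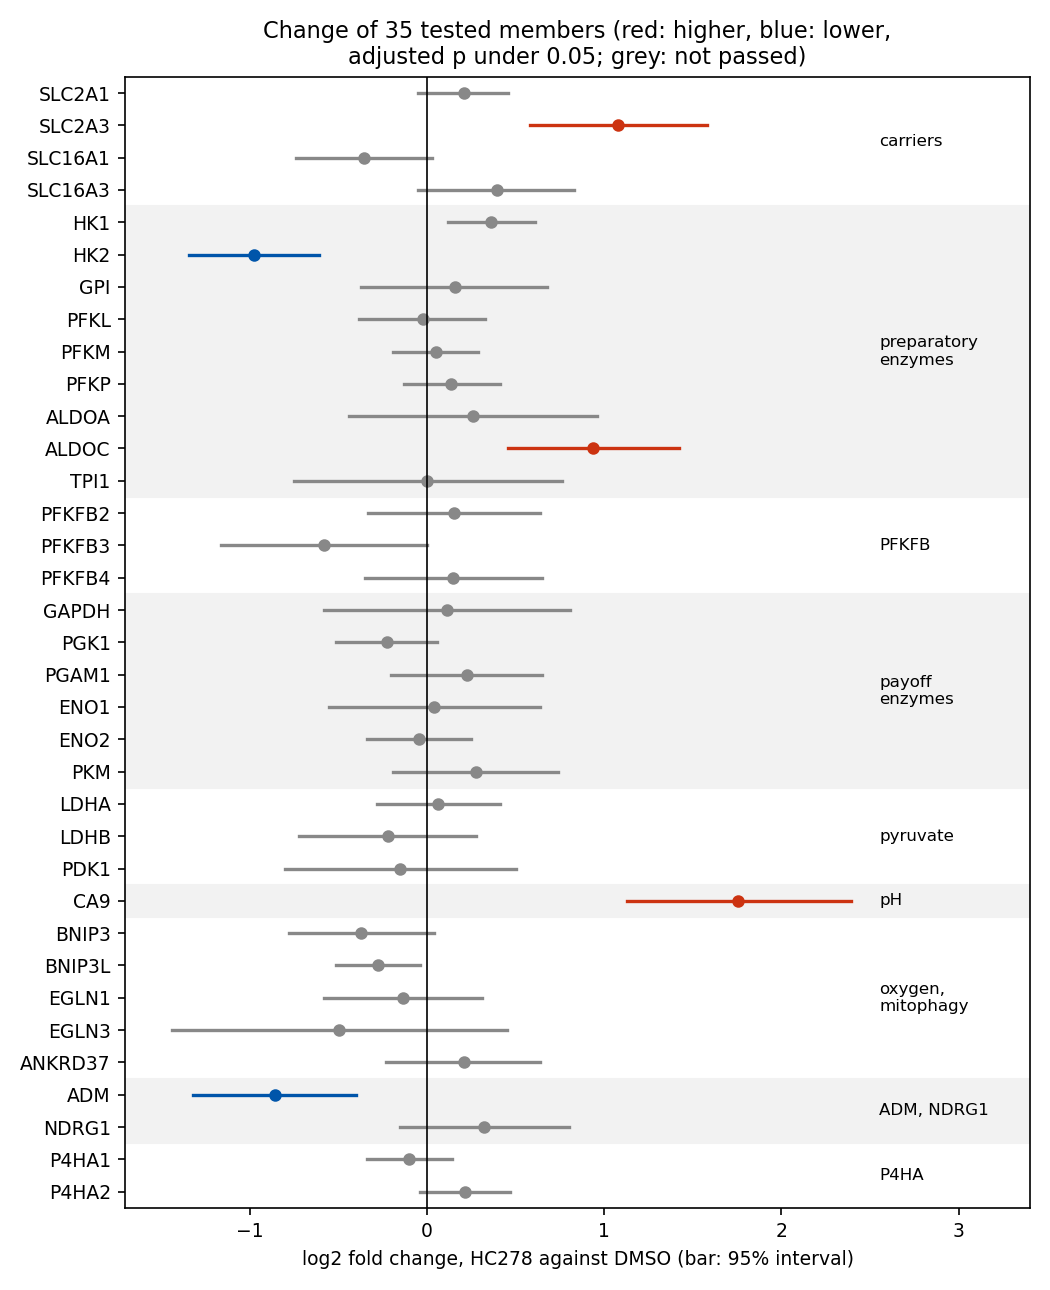
Log2 fold change of HC278 against DMSO (x axis) for the 35 tested members (y axis, grouped by role); points are edgeR estimates from 3 against 3 libraries and bars their 95% intervals. CA9, SLC2A3 and ALDOC (red) lie to the right and HK2 and ADM (blue) to the left, and the 30 grey genes lie between -0.58 and 0.39.

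The number of calls depended on the libraries, among members and among all genes. Without DMSO replicate 1, 2 or 3 or HC278 replicate 2, edgeR called 0 members, beside 1.03%, 0.0%, 1.54% and 1.59% of all tested genes. In these 4 fits 5, 5, 6 and 6 of the 35 members had an unadjusted p under 0.05. Over all tested genes the counts were 2992 of 15999, 2864 of 15979, 2879 of 15945 and 3082 of 15881. Without HC278 replicate 1, 3 members passed (CA9, SLC2A3 and HK2), beside 5.15% of all tested genes. Without HC278 replicate 6, 17 passed, these 5 among them, or 48.6% of members beside 40.6% of all tested genes. Without both DMSO replicate 3 and HC278 replicate 6, 18 passed (10 higher and 8 lower), beside 40.4% of all genes (19.5% higher and 20.9% lower). DESeq2 on all libraries passed 7 (4 higher and 3 lower, adding HK1 and BNIP3L), beside 18.2% (8.79% higher and 9.37% lower). Upper quartile scaling called 4 members higher and 1 lower, HK1 passing and ADM not, and 1009 genes higher and 673 lower in all, where TMM gave 837 and 835.

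Of the 2 glucose carriers among the 36, SLC2A1 (GLUT1) was the more abundant and SLC2A3 (GLUT3), a carrier of high affinity for glucose, changed. SLC2A3 (ENSG00000059804, chromosome 12, 7919230 to 7936187, minus strand of hg38) had 6.17, 5.65 and 6.50 CPM in DMSO replicates 1, 2 and 3 and 11.0, 11.0 and 16.7 CPM in HC278 replicates 1, 2 and 6. All HC278 libraries lay above all DMSO libraries, with replicate 6 highest. The log2 fold change was 1.08 (SE 0.21, adjusted p = 0.0261), a 2.11-fold rise. Its near-identical copy SLC2A14 held 0.272% as many counts, so few reads were assigned there. SLC2A1 had 159, 149 and 146 CPM with DMSO and 165, 181 and 177 CPM with HC278, without overlap, and did not pass (log2 0.21, 95% interval -0.05 to 0.46, adjusted p = 0.274). Per length, SLC2A3 was 2.80 ± 0.239% (SD, n = 3) of the summed TPM of SLC2A1 and SLC2A3 with DMSO and 5.0 ± 1.14% with HC278.

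Of the monocarboxylate carriers, SLC16A3 (MCT4), which exports lactate, had 193, 185 and 162 CPM with DMSO and 277, 249 and 183 CPM with HC278. In CPM replicate 6 of HC278 fell within the DMSO range, with a log2 fold change of 0.39 (SE 0.18) that did not pass (adjusted p = 0.235). In TPM the groups did not overlap, at 95.1, 93.1 and 91.1 with DMSO and 112, 114 and 118 with HC278. The gene CSNK1D overlaps SLC16A3 on the opposite strand over 482 exon bases, with 66.6% as many counts, and the strand setting of the counting is not given in the sources used here. SLC16A1 (MCT1), which carries lactate and pyruvate, went the other way, with 113, 116 and 131 CPM against 80.5, 87.8 and 113 CPM (log2 -0.36, adjusted p = 0.223), the nearest libraries of the groups being equal as rounded. SLC16A3 made up 56.3 ± 4.27% of the TPM of both carriers with DMSO and 67.9 ± 8.69% with HC278, with overlap between the groups. Without HC278 replicate 6, SLC16A3 passed as higher (log2 0.54, adjusted p = 0.0109) and SLC16A1 as lower (log2 -0.52, adjusted p = 0.0113).

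Hexokinases trap glucose in the cell as glucose 6-phosphate, HK1 being the form of most tissues and HK2 the inducible form of muscle, fat and many tumours. HK2 (ENSG00000159399, chromosome 2, 74834127 to 74893359, plus strand) had 42.9, 46.2 and 55.6 CPM with DMSO and 21.8, 24.5 and 27.4 CPM with HC278. The groups were far apart, the lowest DMSO library lying above the highest HC278 library. HK2 fell by 0.97 on the log2 scale (SE 0.15, adjusted p = 0.0148). HK1 had 254, 256 and 264 CPM with DMSO and 322, 336 and 336 CPM with HC278. These values did not overlap, but the difference did not pass in edgeR (adjusted p = 0.0764, with a log2 fold change of 0.36 and an SE of 0.10). HK1 passed with upper quartile scaling (adjusted p = 0.0473), with DESeq2 (adjusted p = 0.000213) and without HC278 replicate 6 (adjusted p = 0.0174). HK2 made up 15.2%, 16.1% and 18.3% of the summed TPM of HK1 and HK2 in the DMSO libraries and 6.73%, 7.18% and 7.98% in the HC278 libraries, a difference of -9.26 percentage points. An exact two-sided permutation test of 3 against 3 libraries gave p = 0.10, the smallest it can give, and an adjusted p of 0.188 over the 15 family shares compared. HKDC1, a further hexokinase that is not among the 36, was the most abundant of the 3 per length with DMSO, at 174 ± 18.8 TPM (SD, n = 3) beside 132 ± 12.5 TPM of HK1 and 26.3 ± 5.64 TPM of HK2. HKDC1 fell (229 ± 7.51 to 158 ± 16.9 CPM, log2 -0.53, SE 0.12, adjusted p = 0.0448).

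**Figure D2:**
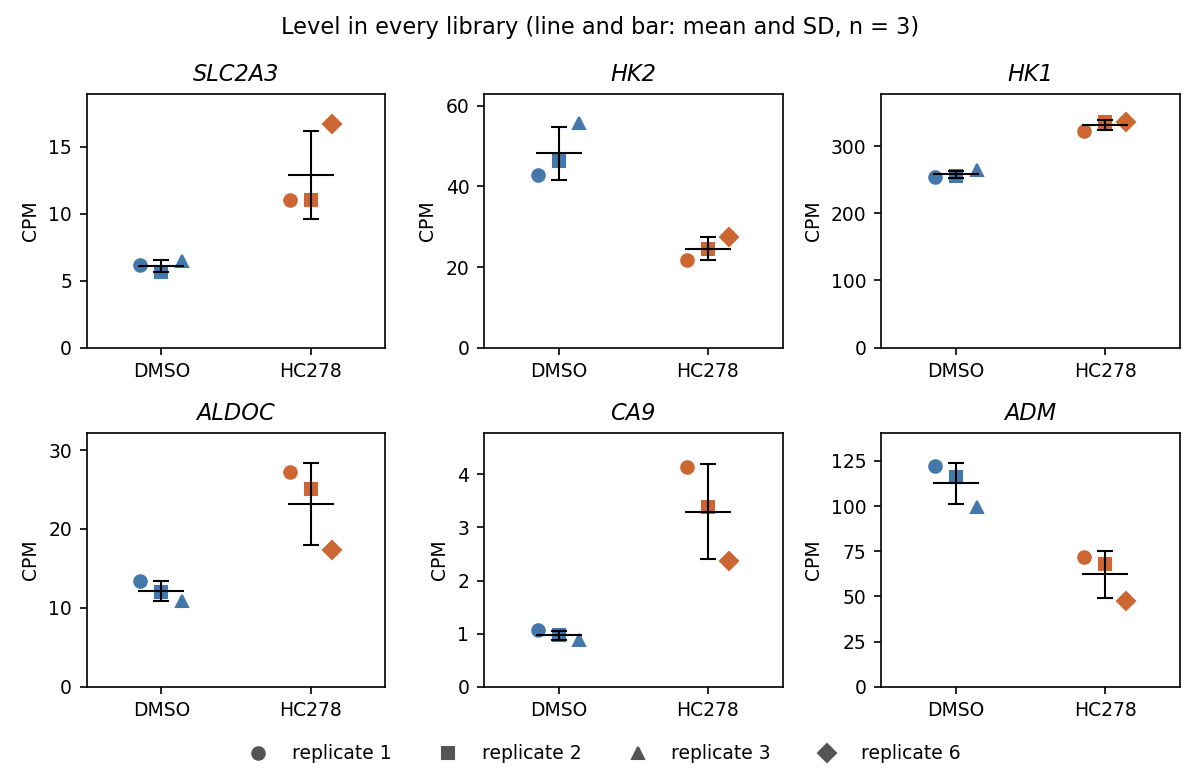
CPM (y axes, each from 0) of the 5 members that passed and of HK1 in every library, by group (x axis); symbols mark the replicate, and the line and bar give the mean and SD of 3 libraries. In each panel the DMSO and HC278 libraries do not overlap. Within the HC278 group, replicate 6 is highest for SLC2A3 (16.7 CPM) and HK2 (27.4 CPM) and lowest for ALDOC (17.3 CPM), CA9 (2.37 CPM) and ADM (47.2 CPM).

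GPI, which turns glucose 6-phosphate into fructose 6-phosphate, had 292 to 349 CPM with DMSO and 256 to 436 CPM with HC278 and did not pass (log2 0.16, adjusted p = 0.711). The 3 phosphofructokinase genes, whose enzyme commits sugar to glycolysis, did not pass: PFKL was at -0.02, PFKM at 0.05 and PFKP at 0.14 on the log2 scale, with 95% intervals of -0.38 to 0.33, -0.19 to 0.29 and -0.13 to 0.41. PFKP was the main form, at 66.4 ± 0.395% of the summed TPM of the 3 with DMSO and 68.4 ± 0.785% with HC278. SENP1 overlaps PFKM on the opposite strand with 19.1% as many counts.

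The PFKFB genes encode the bifunctional enzymes that set the level of fructose 2,6-bisphosphate, the strongest activator of phosphofructokinase. PFKFB3, the form with the highest kinase activity and a known HIF target, had 17.4, 19.3 and 24.2 CPM with DMSO and 9.96, 13.4 and 17.4 CPM with HC278. The groups did not overlap, although the highest HC278 and lowest DMSO library were equal as rounded here, and the log2 fold change of -0.58 (SE 0.24) did not pass (adjusted p = 0.186). It passed without HC278 replicate 6 (log2 -0.80, adjusted p = 0.0199). PFKFB2 had 33.0 to 40.0 CPM with DMSO and 32.6 to 51.9 CPM with HC278 (log2 0.15), and YOD1 overlaps it on the opposite strand with 69.4% as many counts. PFKFB4 had 2.85 to 4.45 CPM over all libraries (log2 0.15). Within the TPM of the 3 genes PFKFB3 took 44.8 ± 2.16% with DMSO and 32.8 ± 3.21% with HC278, and PFKFB2 48.0 ± 1.01% and 58.1 ± 1.59%. Neither share overlapped between the groups (exact permutation p = 0.10 each, adjusted 0.188).

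Aldolases split fructose 1,6-bisphosphate. ALDOC, known as the brain form and also induced by HIF, had 13.4, 12.0 and 10.9 CPM with DMSO and 27.2, 25.1 and 17.3 CPM with HC278 (ENSG00000109107, chromosome 17, 28573115 to 28576948, minus strand). The groups did not overlap, and HC278 replicate 6 was the lowest of its group. ALDOC rose by 0.94 on the log2 scale (SE 0.20, adjusted p = 0.0352). Per length it stayed a small part of aldolase RNA, at 1.47 ± 0.083% of the TPM of ALDOA and ALDOC with DMSO and 2.40 ± 0.351% with HC278. ALDOA, the main form, had 1339, 1232 and 1009 CPM with DMSO and 1860, 1548 and 884 CPM with HC278, so that the HC278 libraries spread to both sides of the DMSO libraries (log2 0.26, SE 0.29, adjusted p = 0.638). TPI1, which interconverts the 3-carbon sugars, spread alike, with 880 to 1148 CPM with DMSO and 1363, 1139 and 595 CPM with HC278 (log2 0.0034, SE 0.31).

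None of the 6 payoff enzymes, which make ATP and pyruvate from the 3-carbon sugars, passed. GAPDH, which makes NADH in this phase, was the most abundant member per length, at 10506 ± 467 TPM with DMSO and 10438 ± 1367 TPM with HC278 (SD, n = 3). Its CPM values were 8623, 8151 and 6884 with DMSO and 10776, 9482 and 5319 with HC278 (log2 0.11, 95% interval -0.58 to 0.81). Next per length with DMSO stood ENO1 at 2286 ± 50.8, PGAM1 at 1282 ± 13.6, PKM at 1234 ± 11.2 and TPI1 at 1216 ± 78.5 TPM, of which PGAM1, PKM and TPI1 lay within the SD of TPI1 of one another. In CPM, ENO1 (log2 0.04), PGAM1 (log2 0.23) and PKM (log2 0.28) each had HC278 replicates 1 and 2 above all DMSO libraries and replicate 6 within or below their range. In TPM the order differed: replicate 6 was the highest library for PGAM1 (1483 TPM) and PKM (1444 TPM), and all HC278 libraries lay above all DMSO libraries for both. PGK1, the first enzyme of the chain to make ATP, had 551, 535 and 540 CPM against 456, 505 and 430 CPM, lower in all HC278 libraries. In TPM, its HC278 replicate 6 (316) lay above DMSO replicates 1 and 2 (307 and 306). PGK1 did not pass (log2 -0.23, 95% interval -0.51 to 0.06, adjusted p = 0.293). ENO2, the neuronal enolase, had 54.5 to 67.6 CPM over all libraries (log2 -0.05). Processed copies listed under the names of these enzymes held at most 0.109% as many counts, among them 62 rows named for GAPDH.

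LDHA and LDHB, the subunits of the enzyme between pyruvate and lactate, did not pass. LDHA had 1481 to 1574 CPM with DMSO and 1389 to 1728 CPM with HC278 (log2 0.06, 95% interval -0.28 to 0.41). LDHB had 1077, 1016 and 912 CPM against 994, 957 and 627 CPM (log2 -0.22, adjusted p = 0.567). LDHB was 58.1%, 57.0% and 55.5% of the TPM of both subunits with DMSO and 54.3%, 52.8% and 47.8% with HC278, without overlap (exact permutation p = 0.10, adjusted 0.188). PDK1, the kinase that closes pyruvate dehydrogenase, had 9.58, 10.5 and 12.6 CPM against 7.96, 7.54 and 13.9 CPM (log2 -0.15, adjusted p = 0.784). Replicates 1 and 2 of HC278 lay below all DMSO libraries and replicate 6 above them, and without replicate 6 it passed as lower (log2 -0.49, adjusted p = 0.0384).

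**Figure D3:**
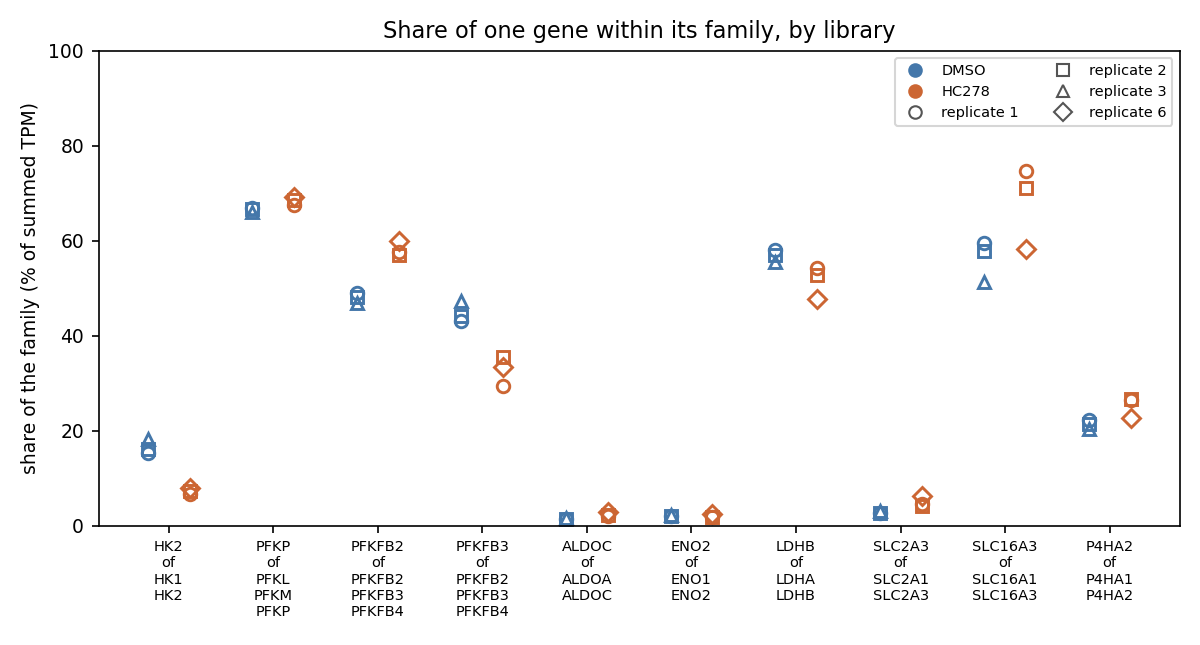
Share of 1 gene in the summed TPM of its family (y axis, percent) for 10 genes (x axis), with each library as a symbol (blue DMSO, orange HC278). HK2 is at 15.2% to 18.3% with DMSO and 6.73% to 7.98% with HC278, PFKFB3 at 43.0% to 47.2% and 29.3% to 35.6%, and the shares of SLC16A3 and ENO2 overlap between the groups.

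Among the HIF targets outside glycolysis, CA9 and ADM moved in opposite directions. CA9 (ENSG00000107159, chromosome 9, 35673918 to 35681159, plus strand), a carbonic anhydrase at the cell surface and a standard marker of hypoxia, had 34, 32 and 30 counts with DMSO and 118, 107 and 81 with HC278. In CPM these were 1.06, 0.967 and 0.886 against 4.14, 3.39 and 2.37, with no overlap. The log2 fold change of 1.76 (SE 0.26, adjusted p = 0.0130), or 3.38-fold, was the largest in size of any tested member. ARHGEF39 overlaps CA9 on the opposite strand over 643 exon bases with 138% as many counts, so the size of the change is uncertain. ARHGEF39 itself had a log2 fold change of -0.49 and did not pass (adjusted p = 0.151). CA12, a related enzyme at the cell surface, had 2, 1 and 2 counts with DMSO and 6, 9 and 4 with HC278 and was too low to be tested.

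ADM (ENSG00000148926, chromosome 11, 10305073 to 10307397, plus strand) encodes adrenomedullin, a peptide that widens blood vessels. It had 122, 116 and 99.6 CPM with DMSO and 71.7, 67.7 and 47.2 CPM with HC278, with no overlap. ADM fell by 0.86 on the log2 scale (SE 0.19, adjusted p = 0.0392), and with upper quartile scaling it did not pass (log2 -0.79, adjusted p = 0.0537). NDRG1, a gene of stress and differentiation, had 97.8 to 104 CPM with DMSO and 102, 110 and 164 CPM with HC278 and did not pass (log2 0.32, adjusted p = 0.366).

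The oxygen-sensing and mitophagy genes did not pass. EGLN1, the main hydroxylase of HIF alpha, had 47.4, 48.4 and 54.0 CPM against 37.3, 41.9 and 57.3 CPM (log2 -0.13, adjusted p = 0.708). EGLN3, its hypoxia-inducible relative, was near the detection limit with 10 to 30 counts per library (log2 -0.49, 95% interval -1.44 to 0.45). BNIP3 and BNIP3L, receptors that mark mitochondria for removal, were both lower in every HC278 library in CPM. BNIP3 had 68.5, 63.6 and 59.9 CPM against 55.7, 54.1 and 38.3 CPM (log2 -0.37, adjusted p = 0.228). BNIP3L had 94.7, 94.4 and 99.2 CPM against 77.1, 79.2 and 82.2 CPM (log2 -0.27, adjusted p = 0.133), with PNMA2 on the opposite strand at 134% of its counts. In TPM, HC278 replicate 6 of BNIP3L (79.1) lay above DMSO replicates 1 and 2 (69.2 and 70.8). ANKRD37, a sensitive HIF target of unsettled function, had 11.3 to 14.8 CPM with DMSO and 13.2 to 18.3 CPM with HC278 (log2 0.21), and UFSP2 overlaps it on the opposite strand with 127% as many counts. Of the collagen prolyl hydroxylases, P4HA1 was at -0.10 and P4HA2 at 0.22 on the log2 scale. P4HA2 had 50.6, 49.1 and 47.3 CPM against 58.1, 59.8 and 52.8 CPM, without overlap, and did not pass (adjusted p = 0.252).

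Counting by overlap of CPM in place of the test, 13 of the 35 tested members had HC278 libraries entirely above (6) or below (7) the DMSO libraries. That is 37.1% of them, beside 34.6% of all tested genes (17.0% higher and 17.5% lower). Besides the 5 that passed these were SLC2A1, HK1 and P4HA2 on the higher side and PFKFB3, PGK1, SLC16A1, BNIP3 and BNIP3L on the lower side. In TPM, BNIP3 and the 5 that passed stayed apart. SLC2A1, HK1, P4HA2, PFKFB3, PGK1, SLC16A1 and BNIP3L overlapped between the groups in TPM, and SLC16A3, PGAM1, PKM and LDHB stood apart in TPM only. The share over all tested genes given here is for CPM, and none is given for TPM to set these genes against. For 11 members the 95% interval lay within a 1.5-fold change in either direction. These were SLC2A1, PFKL, PFKM, PFKP, PGK1, ENO2, LDHA, BNIP3L, EGLN1, P4HA1 and P4HA2.

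Several abundant enzymes with short transcripts varied widely within HC278. Taking a gene's length relative to the median gene, TPI1 (0.535), GAPDH (0.475) and ALDOA (0.759) were lower in HC278 replicate 6 than in the mean of replicates 1 and 2, with log2 differences of -1.06, -0.93 and -0.94. PDK1 (2.95), NDRG1 (1.95) and PFKFB2 (2.02) were higher there by 0.84, 0.62 and 0.60. Of 13 members shorter than the median gene 10 were lower in replicate 6, and of 22 longer ones 12 were. Over the 35 members the Spearman correlation of length with this deviation was 0.40 and over 15399 tested genes with counts in all HC278 libraries 0.53, each a description across genes of the same 3 libraries. The part of length in the calls was looked at through a fit with each library's trend on length taken out. In that fit the same 5 members passed, or 14.3% of the 35, beside 2701 of all 15510 tested genes. The main fit called 1672 of these genes. The log2 values of the 5 members were then 1.07 for SLC2A3, -0.97 for HK2, 0.86 for ALDOC, 1.58 for CA9 and -0.96 for ADM. GAPDH was then at -0.01 and TPI1 at -0.09. Without HC278 replicate 6, 10 members passed as higher (ALDOA, ALDOC, CA9, GPI, HK1, P4HA2, PGAM1, PKM, SLC16A3 and SLC2A3) and 7 as lower (ADM, BNIP3L, EGLN1, HK2, PDK1, PFKFB3 and SLC16A1), beside 19.8% and 20.7% of all tested genes.

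**Figure D4:**
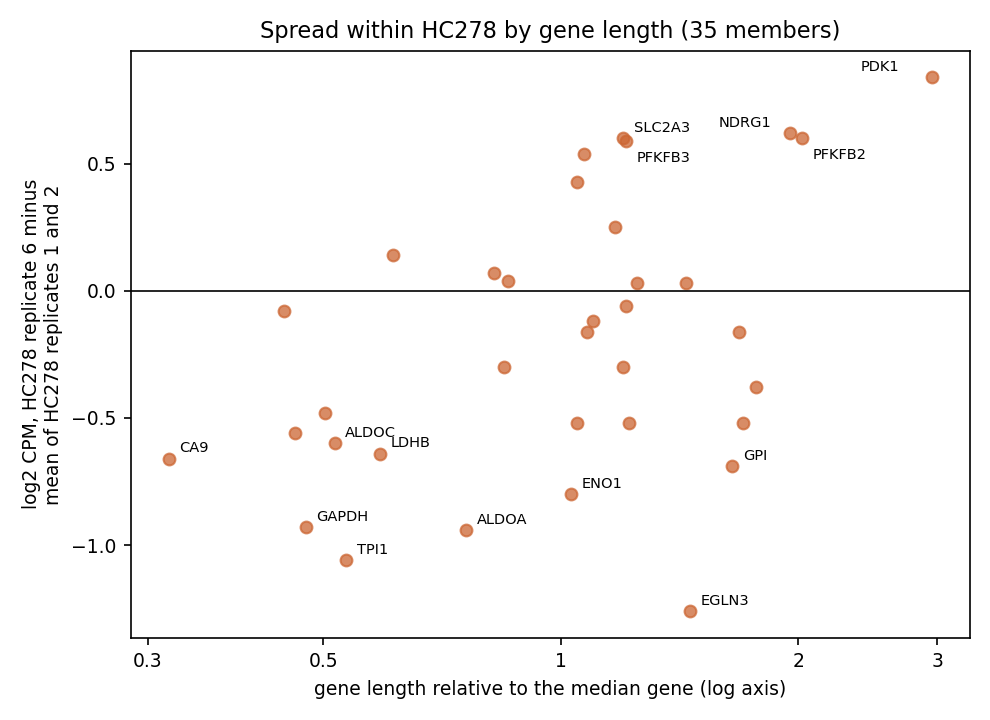
Log2 CPM in HC278 replicate 6 minus the mean of HC278 replicates 1 and 2 (y axis) against gene length relative to the median gene (x axis, log scale) for the 35 tested members, 1 point each. TPI1 and GAPDH, which are short, lie at -1.06 and -0.93 and PDK1, the longest, at 0.84, while 12 of the 22 members longer than the median gene lie below 0, among them GPI (-0.69), PKM (-0.52) and EGLN3 (-1.26).

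The promoters of the called members show where the core of the hypoxia response element occurs. This core is ACGTG or GCGTG, searched on both strands in the 250 bases before the RefSeq start site (GRCh38.p14). Capitals mark each match, read on either strand, so that ACGTG on the other strand appears as CACGT. An E-box, CACGTG, contains ACGTG on both strands. The sequences run 5′ to 3′ on the gene's strand, and SLC2A3 is named only. CA9 is chr9:35673678-35673927 on the plus strand, HK2 chr2:74833877-74834126 plus, ALDOC chr17:28576896-28577145 minus and ADM chr11:10304823-10305072 plus.
CA9: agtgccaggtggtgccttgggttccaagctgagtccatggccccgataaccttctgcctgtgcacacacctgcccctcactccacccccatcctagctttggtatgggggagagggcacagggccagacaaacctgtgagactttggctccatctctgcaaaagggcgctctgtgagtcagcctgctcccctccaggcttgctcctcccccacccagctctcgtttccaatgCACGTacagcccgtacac
HK2: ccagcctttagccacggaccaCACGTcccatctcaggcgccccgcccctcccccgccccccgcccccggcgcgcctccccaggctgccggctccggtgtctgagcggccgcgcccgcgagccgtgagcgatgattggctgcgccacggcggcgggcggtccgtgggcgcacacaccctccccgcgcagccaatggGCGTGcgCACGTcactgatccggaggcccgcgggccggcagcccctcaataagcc
ALDOC: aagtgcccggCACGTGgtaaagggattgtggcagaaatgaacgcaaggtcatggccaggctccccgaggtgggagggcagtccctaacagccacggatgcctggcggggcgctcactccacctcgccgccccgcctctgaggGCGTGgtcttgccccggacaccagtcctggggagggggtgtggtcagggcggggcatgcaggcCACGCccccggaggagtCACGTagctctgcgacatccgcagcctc
ADM: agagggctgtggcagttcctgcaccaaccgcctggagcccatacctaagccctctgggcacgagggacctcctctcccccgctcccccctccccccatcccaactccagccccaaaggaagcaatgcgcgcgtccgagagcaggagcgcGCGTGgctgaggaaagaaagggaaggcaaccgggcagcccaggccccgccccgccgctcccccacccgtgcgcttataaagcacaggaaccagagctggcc

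CA9 and ADM each held 1 match, HK2 held 3 and ALDOC held 5, so both genes that rose and genes that fell carried it. The match of CA9 began 18 bases before the start site. Promoters of 31 of the 36 members were in the table. Of these, 19 (61.3%) held either form of the core, beside 43.1% of 27305 promoters of the same length. ACGTG was in 13 (41.9%, beside 18.7%) and GCGTG in 10 (32.3%, beside 31.9%). The E-box was in 5 (16.1%, beside 6.49%). The letters GGAATG, the core that TEAD proteins bind, were in 2 (6.45%, beside 11.9%), those of ENO1 and PGAM1, and in none of the 4 windows printed. Many of the members are known HIF targets, so these shares are a description of the list.

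Genes around the 36 in the same pathways were read from the same fit. Of 11 tested genes of the HIF complex and its regulators, 0 passed in edgeR. HIF1A, which encodes the oxygen-controlled subunit, had 94.0, 101 and 141 CPM with DMSO and 52.1, 66.0 and 134 CPM with HC278 (log2 -0.42, adjusted p = 0.552), replicate 6 again lying apart from 1 and 2. EPAS1, which encodes HIF2 alpha, was at 0.03 on the log2 scale, ARNT, the constant partner, at 0.12, and VHL, which targets HIF alpha for destruction, at 0.20. Without HC278 replicate 6, 4 of the 11 passed, 1 higher and 3 lower, beside 19.8% and 20.7% of all tested genes. HIF protein was not measured. HIF1A, EPAS1, ARNT, VHL, VEGFA and TXNIP are named as landmarks of their lists, chosen after their values were seen.

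Of 34 further HIF targets tested, 3 rose and 5 fell, with a median of 0.08. For this and the following lists, the shares over all tested genes are 5.4% higher and 5.38% lower with all libraries. Nothing particular to a list is read from its few genes. DDIT4, an inhibitor of mTORC1, had 45.2 ± 4.70 CPM with DMSO and 126 ± 25.6 CPM with HC278 (SD, n = 3), a rise of 1.48 on the log2 scale (SE 0.19, adjusted p = 0.00846). LOX (log2 -1.86), STC2 (log2 -1.18) and IGFBP3 (log2 -1.44) fell. VEGFA, the vascular growth factor most used as a hypoxia readout, had 34.8 to 39.3 CPM with DMSO and 30.4 to 55.2 CPM with HC278 (log2 0.17, adjusted p = 0.698). The count of 8 became 18 without HC278 replicate 6 (beside 40.6% of all tested genes) and 5 without HC278 replicate 1 (beside 5.15%). It became 2 without DMSO replicate 1 or 3 or HC278 replicate 2 (beside 1.03%, 1.54% and 1.59%). Without DMSO replicate 2 it became 0 (beside 0.0%).

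Of 14 other tested glycolysis and gluconeogenesis enzymes, 2 fell, HKDC1 and the phosphoglucomutase PGM2 (log2 -0.79, adjusted p = 0.0323), and 0 rose, with a median of -0.31. Of 9 other tested sugar and monocarboxylate carriers, 2 rose. SLC2A6, a lysosomal relative of the glucose carriers, had 75.7, 72.4 and 62.1 CPM with DMSO and 181, 157 and 128 CPM with HC278 (log2 1.15, SE 0.16, adjusted p = 0.0119) and with HC278 was at 133 ± 10.5 TPM beside 126 ± 34.6 TPM of SLC2A1 (SD, n = 3), and SLC2A4, the insulin-responsive carrier, stayed below 0.54 CPM in every library. Of 8 tested genes of the pentose phosphate pathway, which branches off at glucose 6-phosphate, 2 rose and 0 fell, with a median of 0.50. One of these was H6PD, an enzyme of the endoplasmic reticulum, with 29.6, 30.4 and 32.6 CPM with DMSO and 47.5, 46.4 and 65.3 CPM with HC278 (log2 0.78, SE 0.16, adjusted p = 0.0339). Its groups did not overlap, and HC278 replicate 6 was highest. Without HC278 replicate 6 edgeR called 11, 8 and 8 genes of these 3 lists, beside 40.6% of all tested genes. Without any one DMSO library or HC278 replicate 2 it called 0 of each, beside 0.0% to 1.59%. Without HC278 replicate 1 it called 0, 1 and 0, beside 5.15%.

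Of 13 tested genes of pyruvate entry into mitochondria, 0 passed, and of 6 tested genes of glucose sensing through MondoA, 0 passed, TXNIP being at 0.17. Of 5 other tested carbonic anhydrases, CA11, a family member without enzyme activity, rose from 0.476 ± 0.0951 to 2.64 ± 0.219 CPM (log2 2.46, adjusted p = 0.00486) and the others did not pass. Of 15 tested relatives of the prolyl hydroxylase, BNIP3, NDRG1 and ADM genes, NDRG4 (log2 2.59), NDRG3 (log2 0.50) and P4HTM (log2 0.59) rose and 0 fell. Without HC278 replicate 6 these 4 lists had 3, 4, 2 and 6 calls, beside 40.6% of all tested genes. The calls of the carbonic anhydrases and of the relatives were 0 each without DMSO replicate 2, beside 0.0%. The relatives had 1 without DMSO replicate 1 or 3 or HC278 replicate 1 or 2, beside 1.03% to 5.15%.

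**Figure D5:**
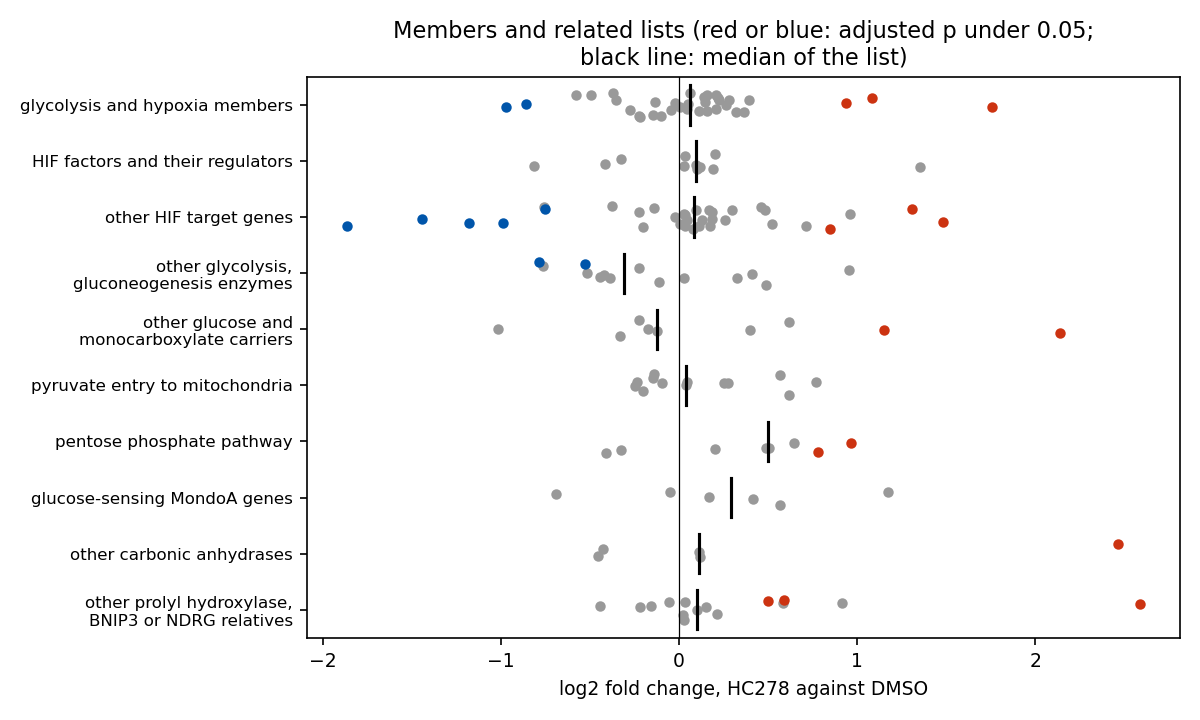
Log2 fold change of HC278 against DMSO (x axis) for the tested members and for 9 related gene lists (y axis), 1 point per gene, with the median of each list as a black line. The medians run from -0.31 for the other glycolysis and gluconeogenesis enzymes to 0.50 for the pentose phosphate pathway, and the members' median is 0.06.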

How the data were processed

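Raw counts of reads per gene, in whole numbers, were deposited for 6 libraries made with a stranded Illumina mRNA kit, per the labels' protocols. TPM values, per the file headers, were computed by the authors and served for levels between genes and for family shares, and 12 other columns of values were not used. The submitters' processing notes name hg38, and for the aligner, the counter, its strand setting and the annotation the entry is: not given in the sources used here.

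The test was edgeR 4.0.16 run under R 4.3.3 (glmQLFit, glmQLFTest, TMM factors of 0.903 to 1.12, filterByExpr with a minimum count of 10), which left 15510 genes. A gene is called changed where its p, adjusted by Benjamini-Hochberg over these genes, is under 0.05. CPM uses the TMM-scaled library size, and 3 counts are 0.0877 to 0.105 CPM, for counting error only. SE is the log2 fold change over the square root of F. Replicate libraries differed by more than sampling noise, with chi-square per degree of freedom of 4.02 to 47.8 between DMSO libraries and 25.4 to 313 between HC278 libraries. On simulated counts of HC278 against DMSO the test was checked, and the outcome is not reported here. These counts were drawn without a trend on gene length, so the check does not cover that trend. Relative length is counts over TPM, set to 1 at the median gene with at least 20 counts per library. Exon overlaps used GENCODE 29. Alternatives used DESeq2 1.42.0, limma 3.58.1 (voom), other scalings and filters, a loess length trend (span 0.5), a replicate block and left-out libraries. Exact permutation tests used scipy 1.17.1, and figures matplotlib 3.10.9.

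All 36 members are accounted for, and those that passed or did not overlap between groups in CPM are given in every library. Of other lists, at most 4 called genes by smallest adjusted p are named, and 1 that this rule would name is not reported here. Members and lists were chosen with earlier results of these data known.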

Additional observations from a re-analysis of the deposited data

How the results depend on the processing

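The direction of the 5 called members held under all 15 alternatives, and without single libraries their log2 values ran from 0.85 to 1.18 (SLC2A3), 0.80 to 1.11 (ALDOC), 1.56 to 1.94 (CA9), -1.06 to -0.86 (HK2) and -0.98 to -0.70 (ADM). Counts of calls depended on the libraries: leaving out 1 gave 0 to 17 members and 0 to 6413 genes in all, and 0 to 4 HIF regulators, 0 to 18 HIF targets, 0 to 11 other glycolysis genes, 0 to 8 carriers, 0 to 3 pyruvate genes, 0 to 8 pentose phosphate genes, 0 to 4 MondoA genes, 0 to 2 carbonic anhydrases and 0 to 6 relatives. Without DMSO replicate 2, where edgeR called 0 genes, 2864 had an unadjusted p under 0.05. With the lists in the same order, omitting DMSO 3 and HC278 6 together gave 18 members and 6322 genes, with 4, 18, 9, 8, 4, 8, 4, 2 and 5 for the lists. DESeq2 gave 7 members and 2818 genes, 13 HIF targets, 4 carriers, 1 pyruvate gene, 4 pentose phosphate genes, 3 MondoA genes and 2 carbonic anhydrases. Removing the length trend gave 2701 genes, 1 pyruvate gene and 2 MondoA genes. No filter gave 1215 of 32091 genes, 5 of 36 HIF targets, 1 of 25 other glycolysis genes and 1 of 16 relatives. Upper quartile scaling gave 1682 of 15510 genes, 1 of 14 other glycolysis genes and 1 of 6 MondoA genes. The cause of these shifts was not tested.

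With the replicate block 19 members (54.3%, beside 52.7% of all genes) and 8172 genes passed, and 8, 19, 10, 8, 4, 8, 4, 2 and 8 of the lists. The groups share only the numbers 1 and 2, whose deviations correlated at 0.517 and 0.183, and no label says what a number marks. With 2 shared numbers these correlations do not settle whether the libraries are paired, and the fit without the block is the one reported.

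Small changes turned sign: PFKL was 0.04 without the length trend, with the block and without DMSO 3 and HC278 6, and 0.05 with upper quartile scaling. TPI1 was -0.09 without the length trend, -0.07 with voom and -0.03 without a filter, GAPDH was -0.01 without the length trend, and ENO2 was 0.03 with the block, with upper quartile scaling and without both libraries. Leaving out 1 library turned PFKL (-0.12 to 0.09), PFKFB2 (-0.08 to 0.28), PFKFB4 (-0.05 to 0.28), TPI1 (-0.25 to 0.28), GAPDH (-0.10 to 0.36), ENO1 (-0.12 to 0.26), ENO2 (-0.10 to 0.04), GPI (-0.0015 to 0.35) and PDK1 (-0.49 to 0.0044). Of the members, EGLN3 (10 to 30 counts per library) and CA12 (at most 9) had the fewest counts.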
